A study of Mus musculus with 40 samples.

Results

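The genes examined are 9 genes grouped as targets of TGF-beta and BMP signalling, measured in mouse choroid and retina after laser injury: the inhibitory SMADs Smad6 and Smad7, the SMAD co-repressors Skil and Ski, the inhibitors of DNA binding Id1, Id2 and Id3, and the matricellular genes Ccn2 and Tgfbi. They were chosen by name, and each had an entry among the 54307 genes of the table. RNA was taken 3 days after 6 laser burns per eye, which break Bruch's membrane and start choroidal neovascularization. Choroid (its centre with the lesions) and retina of the same 20 mice gave 40 libraries, 5 mice in each of 4 groups. All mice were on a C57BL/6J background, carried homozygous floxed Tgfbr2 and received tamoxifen eye drops on 5 days from an age of 6 to 7 weeks. Tgfbr2ΔEC mice also carried 1 copy of Cdh5-CreERT2, a tamoxifen-inducible Cre recombinase under an endothelial promoter, and control mice were littermates without Cre. Both sexes were used, and the labels do not give the sex of a mouse. In both genotypes, mice either ate PLX5622 (+PLX), an inhibitor of the CSF1 receptor that depletes mononuclear phagocytes, from the first tamoxifen dose to the end, or did not (-PLX). Since whole tissue was sequenced, the deletion concerned only endothelial cells among all the cells of a library.

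TGF-beta ligands act through the type II receptor TGFBR2 and a type I receptor, usually ALK5 (Tgfbr1), on SMAD2 and SMAD3. BMP ligands, and TGF-beta through ALK1 in endothelium, act on SMAD1 and SMAD5, and both branches need SMAD4 to reach their target genes. All but Ski of the genes followed here are among the best known readouts of these branches: Id1, Id2, Id3 and Smad6 mainly of SMAD1 and SMAD5, Skil, Ccn2 and Tgfbi mainly of SMAD2 and SMAD3, and Smad7 of both. Ski was followed as a co-repressor beside Skil and is assigned to neither branch. Several of them act back on the pathway, because inhibitory SMADs block the receptors and SKI proteins silence SMAD target genes.

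Promoter sequence was looked up in RefSeq (assembly GRCm38.p6), which held windows of 300 bases, 250 before and 50 after the start, for Smad6, Ski, Id2, Id3 and Tgfbi, 5 of the 9 genes. The motifs searched, on both strands, were GTCTAGAC, a palindrome to which SMAD3 and SMAD4 bind, GGCGCC, the GC box of BMP-responsive elements, and CAGAC. No match of one overlapped a match of another. GTCTAGAC stood in the Smad6 window and in 70 of 32851 windows of the same length (0.213%). GGCGCC stood in those of Ski, Id2 and Tgfbi, against 11.9% of all windows, and CAGAC in those of Id3 and Tgfbi, against 49.6%. The 30 bases around each match of the 2 longer motifs are shown because they hold the motifs of the pathway, 5′ to 3′ on the strand of the gene with the motif in capitals. By exact match to GRCm39, they lie at chr9:63929327-63929356 (Smad6, minus strand), chr4:155307195-155307224 (Ski, minus strand), chr12:25146305-25146334 (Id2, minus strand) and chr13:56757310-56757339 (Tgfbi, plus strand). Each overlaps sequence annotated as untranslated region in at least 1 transcript of its gene.
Smad6: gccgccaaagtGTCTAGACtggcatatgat
Ski: gcgcgtggatgtGGCGCCgggcccgggcgg
Id2: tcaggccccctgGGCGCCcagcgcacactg
Tgfbi: cgtggtctgggaGGCGCCggctgcccttcc
The matches describe letters only, and no binding was measured.

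The values are normalized counts, the authors' estimates of reads per gene after scaling of all 40 libraries together, and 1 read was worth between 0.748 and 1.19 of them, depending on the library. Estimated in this way, depth was 21583339 to 28252868 reads in choroids and 20987041 to 30319836 in retinas. As a check of the tissue labels, photoreceptor genes summed to between 1003760 and 1495460 normalized counts in retinas, and the 10 endothelial markers were all above 0 in every library. Neural retina RNA was also present in choroid, with photoreceptor sums of 3876 to 27177 in control -PLX and 47239 to 133708 in Tgfbr2ΔEC -PLX choroids, groups that did not overlap. Melanocyte markers were highest in the retinas of mouse 1 (sum 1120) and mouse 9 (sum 1519), against at most 794 in the others. Tgfbr2 itself, the deleted gene, did not separate the genotypes. It lay between 9836 and 10849 in control -PLX choroids and between 8729 and 11304 in Tgfbr2ΔEC -PLX choroids, and between 164 and 293 against 107 and 285 in the retinas of the same groups. With PLX it lay between 9434 and 12801 in control and 10817 and 11999 in Tgfbr2ΔEC choroids. In the +PLX retinas it lay between 66.4 and 155 in control and 91.5 and 140 in Tgfbr2ΔEC mice.

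All 9 genes were higher in choroid than in retina, in each of the 20 mice. Of all genes tested, 40.8% were called higher in choroid (limma, adjusted p at or under 0.05). The share of all genes that were higher in every mouse was not counted. Levels between genes were compared as normalized counts per kilobase of the canonical transcript (kb). In choroid, Ccn2, a secreted matricellular protein also known as CTGF, had the highest level in every mouse, 8913 ± 3521 per kb (SD, n = 20), and made up on average 51.9% of the summed level of the 9 genes. Id3 followed at 2659 ± 715 per kb and ranked 2 or 3 in every mouse. Tgfbi (1323 ± 387), Id1 (993 ± 184), Id2 (989 ± 267) and Ski (971 ± 84.5) exchanged ranks between mice over all 20. The diets differed in this. In -PLX choroids Tgfbi (1301 per kb or more) lay above every value of Id1 (at most 1141) and Ski (at most 1038) and overlapped Id2 (at most 1397), while in +PLX choroids the ranges of all 4 genes overlapped. Skil (347 ± 47.6), Smad6 (251.6 ± 70.9) and Smad7 (236 ± 41.8) had the lowest levels. In retina the order was another one. Ski (235 ± 14.1 per kb), which ranked 1 or 2 in every mouse, and Ccn2 (199 ± 51.0), Skil (181 ± 26.2) and Id3 (161 ± 56.0) were highest, and Tgfbi (17.3 ± 26.9) and Smad6 (16.1 ± 8.56) lowest. The order of the means over both genotypes differed between diets here too. Tgfbi averaged 30.2 per kb in -PLX and 4.33 in +PLX retinas, against 17.8 and 14.5 for Smad6. Without PLX these 2 overlapped, Tgfbi at 4.06 to 104 and Smad6 at 12.8 to 44.5 per kb. Ccn2 averaged 176 and 222, against 187 and 175 for Skil, also with overlap. Its mean was below that of Skil only in Tgfbr2ΔEC -PLX retinas (147 against 180). In control -PLX retinas it was above (205 against 194).

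**Figure D1:**
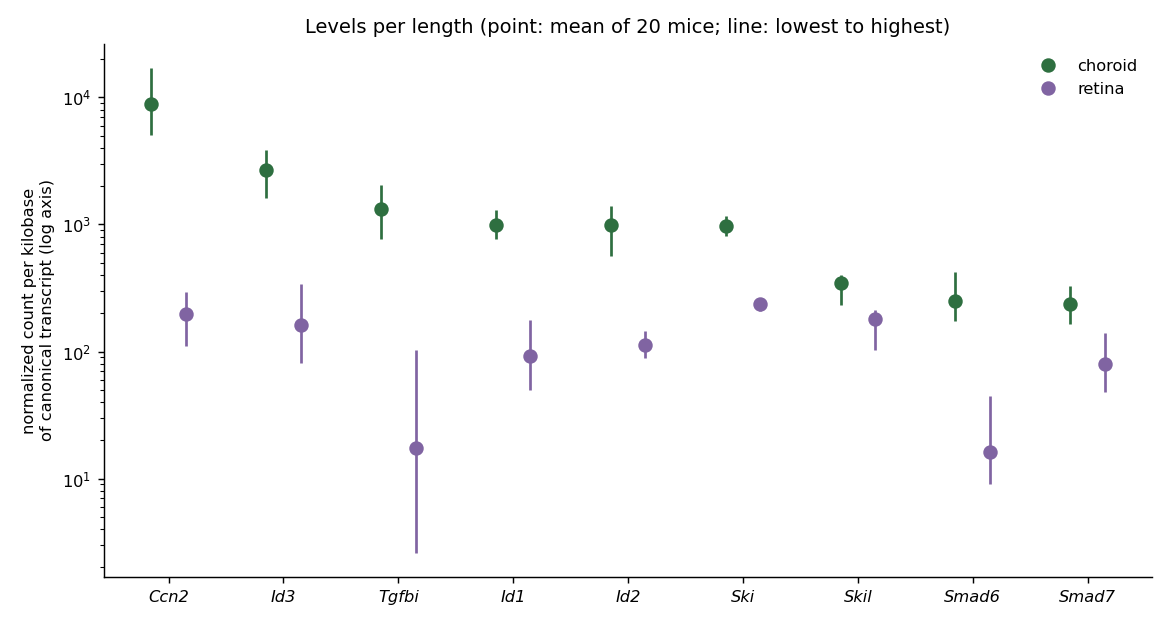
Normalized counts per kilobase of canonical transcript (log axis) of the 9 genes in choroid and retina; points are means of 20 mice and lines run from the lowest to the highest mouse. Ccn2 stands at 8913 in choroid and 199 in retina, while Skil, the gene with the smallest difference, stands at 347 and 181.

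The fit over all 40 libraries called all 9 genes higher in choroid (limma on log2(normalized count + 1), Benjamini-Hochberg adjusted p from 1.9e-34 for Ski to 4.76e-14 for Skil). Of the 24317 genes tested, 82% were called, 40.8% as higher and 41.1% as lower in choroid, so a call by itself says little, and the sizes are given instead. The difference was largest for Tgfbi, at 7.11 on the log2 scale (SE 0.23) as the average of 4 unlike groups. The mean difference within a mouse was 5.85 ± 1.61 (SD, n = 5) in control -PLX and 7.04 ± 1.42 in Tgfbr2ΔEC -PLX mice, against 7.87 ± 0.41 and 7.69 ± 0.24 in the +PLX mice, whose retinas were the lowest. It was 5.44 (SE 0.12) for Ccn2, 4.06 (SE 0.13) for Id3, 4.02 (SE 0.14) for Smad6, 3.44 (SE 0.10) for Id1 and 3.09 (SE 0.10) for Id2. It was smaller for Ski (2.05, SE 0.04), Smad7 (1.59, SE 0.10) and Skil (0.94, SE 0.08). The median of the 9 was 3.44, against -0.01 over all genes tested. No retina reached the lowest choroid for any of the 9 genes, although for Skil the highest retina (1495 normalized counts) came close to the lowest choroid (1614). The share of all genes that separate the tissues in this way was not counted. The ratio within a mouse ranged from 1.22 to 3.58 for Skil, from 3.27 to 4.65 for Ski and from 24.3 to 82.6 for Ccn2. For Tgfbi it ranged from 12.6 to 476, the widest span of the 9. Of the other lists, 25 of 25 further SMAD2/3 target genes and 11 of 14 further SMAD1/5 target genes were called higher in choroid (medians 5.34 and 2.18), as were 9 of 15 ligands, 8 of 13 receptors and co-receptors and 4 of 5 receptor-activated and common SMADs. Called lower in choroid were 3 of the 14 SMAD1/5 targets, 5 ligands, 4 receptors and 1 SMAD.

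**Figure D2:**
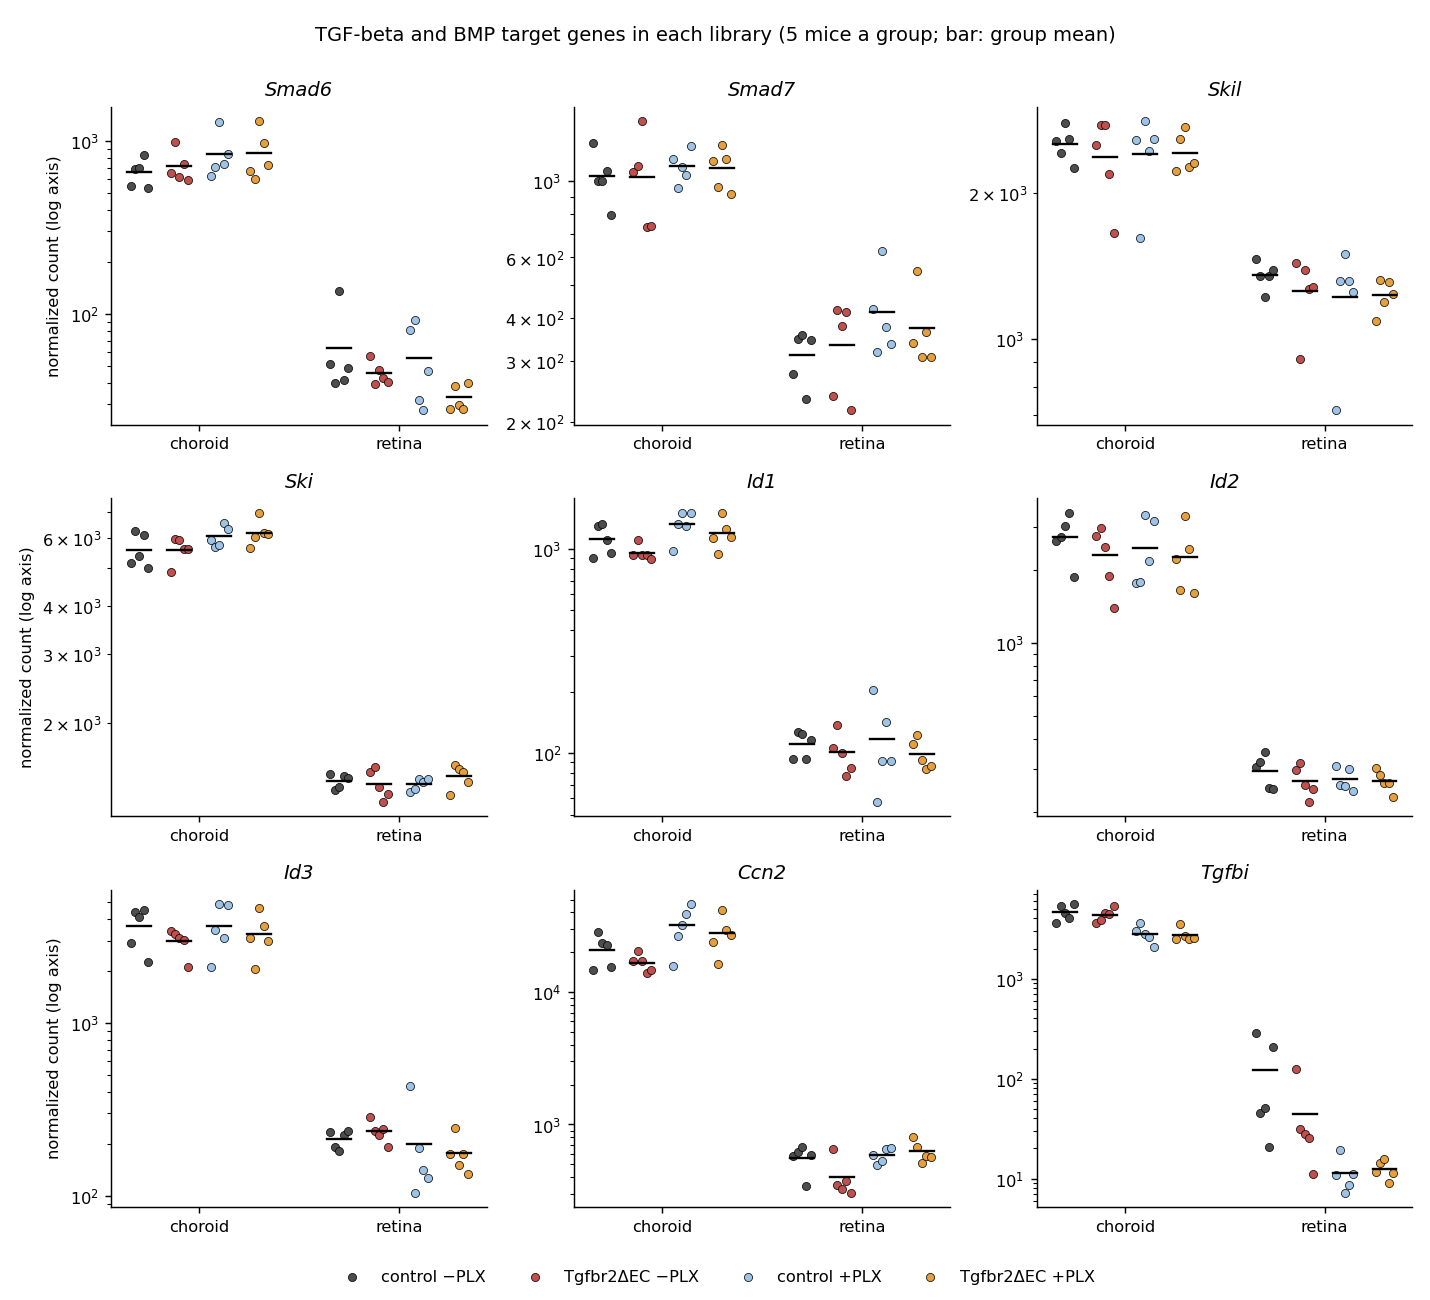
Normalized counts (log axis) of each gene in every library, by tissue and group, with 5 mice per group and a bar at the group mean. The choroids lie above the retinas in all 9 panels, the 4 choroid groups overlap in 8 of them, and Tgfbi is lower in the +PLX groups.

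Smad6, which acts mainly against BMP receptors (ENSMUSG00000036867, chr9:63860341-63929793), was measured at 549.9, 687, 699, 834 and 534 normalized counts in control -PLX choroids and at 657, 985, 616, 738 and 596 in Tgfbr2ΔEC -PLX choroids. In control +PLX choroids it was measured at 630.1, 710.1, 1287, 739 and 843, and in Tgfbr2ΔEC +PLX choroids at 672, 602, 1298, 978 and 730.1. The 4 groups overlapped, and the highest values came from 1 mouse of each +PLX group (mice 13 and 18). In retina, Smad6 lay between 27.6 and 56.8 except in 3 control mice, mouse 3 at 136 and mice 11 and 12 at 80.4 and 92.1. Smad7, which blocks the TGF-beta type I receptor and brings ubiquitin ligases to it (ENSMUSG00000025880, chr18:75500374-75529006), averaged 1031 ± 176 (SD, n = 5) in control -PLX, 1026 ± 310 in Tgfbr2ΔEC -PLX, 1102 ± 117 in control +PLX and 1089 ± 147 in Tgfbr2ΔEC +PLX choroids. The group means of Smad7 thus stayed within a narrow range, and mice within a group differed by more than the groups did, from 737 to 1487 in Tgfbr2ΔEC -PLX. In retina Smad7 ranged from 216 to 625, with the highest values in mouse 13 (control +PLX) and mouse 17 (Tgfbr2ΔEC +PLX, 549).

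Skil and Ski encode SnoN and SKI, proteins that bind SMADs and recruit co-repressors to their target genes. Skil (ENSMUSG00000027660, chr3:31148816-31176740) averaged 2512 ± 198, 2368 ± 463, 2398 ± 457 and 2415 ± 222 normalized counts in control -PLX, Tgfbr2ΔEC -PLX, control +PLX and Tgfbr2ΔEC +PLX choroids. Mouse 10 (1650) and mouse 12 (1614) were low for their groups. In retina Skil ranged from 715 (mouse 11) to 1495 (mouse 13). Ski (ENSMUSG00000029050, chr4:155238532-155307543) varied least of the 9, between 4876 and 6950 in choroids and between 1251 and 1552 in retinas, and its choroid group means were 5576, 5583, 6039 and 6174 in the same order. An antisense non-coding gene overlaps Skil, as it does Id1, Id3 and Ccn2, and 2 overlap Id2. The libraries were stranded, and whether strand was used in quantification is not given in the sources used here.

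The Id proteins lack a DNA-binding region and hold E proteins away from DNA. Id1 (ENSMUSG00000042745, chr2:152566218-152579544) was measured at 905, 1297, 1317, 1111 and 956 normalized counts in control -PLX choroids and at 932, 1103, 930.0, 929.9 and 894 in Tgfbr2ΔEC -PLX choroids. In the +PLX choroids it was measured at 977, 1330, 1502, 1291 and 1494 in controls and at 1125, 942, 1492, 1253 and 1145 in Tgfbr2ΔEC mice. Of the Tgfbr2ΔEC -PLX choroids 4 lay close together, at 894 to 932, and mouse 7 lay apart at 1103. The lowest control choroids, at 905 and 956, lay within the range of that group. Id2 (ENSMUSG00000020644, chr12:25143798-25147282) averaged 2744 ± 583 in control -PLX and 2297 ± 655 in Tgfbr2ΔEC -PLX choroids, and 2450 ± 767 and 2249 ± 709 in the +PLX groups. Id3 (ENSMUSG00000007872, chr4:135870808-135873066) averaged 3638 ± 998 and 2995 ± 509 without PLX and 3674 ± 1190 and 3284 ± 953 with it. For all 3 Id genes the Tgfbr2ΔEC mean was thus the lower one under either diet, and in each case the groups overlapped. In retina the group means were 99.4 to 117 for Id1, 268 to 296 for Id2 and 176 to 236 for Id3, and mouse 11 (control +PLX) was the highest of its group for Id1 (204, the next being 143) and far above it for Id3 (434, the next being 188).

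Ccn2 (ENSMUSG00000019997, chr10:24471333-24474900) was measured at 14756, 28436, 23336, 22617 and 15409 normalized counts in control -PLX choroids and at 17093, 20539, 17190, 13872 and 14643 in Tgfbr2ΔEC -PLX choroids. It was measured at 15882, 26487, 32373, 38749 and 46273 in control +PLX choroids and at 23931, 16345, 42061, 29326 and 27165 in Tgfbr2ΔEC +PLX choroids. The +PLX choroids were mostly higher, with mouse 11 and mouse 17 as the low exceptions, and they were spread more widely than the -PLX choroids. In retina Ccn2 was 581, 616, 676, 344 and 583 in control -PLX and 652, 349.8, 325, 372 and 304 in Tgfbr2ΔEC -PLX mice, and 498 to 659 and 509 to 804 in the +PLX groups. Of the Tgfbr2ΔEC -PLX retinas only mouse 6 reached the levels of most control -PLX retinas, and of those mouse 4 lay among the low ones.

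Tgfbi, a secreted adhesion protein of the extracellular matrix that macrophages also make in quantity (ENSMUSG00000035493, chr13:56757336-56787375), was measured at 3571, 5349, 4532, 4072 and 5572 normalized counts in control -PLX and at 3613, 3819, 4573, 4478 and 5308 in Tgfbr2ΔEC -PLX choroids. In +PLX choroids it was measured at 2982, 3571, 2775, 2599 and 2091 in controls and at 2519, 3496, 2666, 2487 and 2547 in Tgfbr2ΔEC mice. Every +PLX choroid was below every -PLX choroid, but in controls by less than 1 normalized count (3570.9 in mouse 12 against 3571.4 in mouse 1). In retina Tgfbi was 285, 44.8, 50.8, 20.5 and 207 in control -PLX and 125, 31.5, 27.9, 25.5 and 11.1 in Tgfbr2ΔEC -PLX mice. It was 10.96, 19.1, 7.18, 8.60 and 10.99 in control +PLX and 11.5, 14.3, 15.8, 9.06 and 11.4 in Tgfbr2ΔEC +PLX mice. The +PLX retinas were uniformly low, and the -PLX retinas were spread widely, with mice 1, 5 and 6 far above the others.

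Whether the loss of endothelial Tgfbr2 changed the level of its target genes was compared in each diet and tissue. The sexes were not evenly spread over the genotypes. The median sum of 4 Y-linked genes was 5141 and 4515 in control -PLX and +PLX choroids, against 16.2 and 3.75 in Tgfbr2ΔEC choroids. Sex and genotype are thus partly confounded. In choroid without PLX, limma called 0 of the 9 genes, against 0.00423% of the 23619 genes tested, and 0 had an unadjusted p under 0.05, against 9.25% of all genes. The log2 differences, Tgfbr2ΔEC minus control, were -0.30 (95% interval -0.84 to 0.25) for Ccn2, -0.28 (-0.79 to 0.22) for Id2, -0.25 (-0.75 to 0.25) for Id3 and -0.21 (-0.49 to 0.07) for Id1. They were -0.11 (-0.40 to 0.19) for Skil, -0.08 (-0.38 to 0.23) for Tgfbi, -0.04 (-0.38 to 0.30) for Smad7, 0.004 (-0.16 to 0.17) for Ski and 0.11 (-0.32 to 0.55) for Smad6. Of the 9 differences, 7 were below 0, with a median of -0.11 against 0.01 over all genes, and the lowest two-sided exact permutation p was 0.119, for Id1. Single mice moved the larger of these differences: without mouse 10 that of Id2 was -0.11 and that of Id3 -0.13, and without mouse 5 they were -0.41 and -0.41. Ccn2 ranged from -0.41 without mouse 1 to -0.17 without mouse 2, and Id1 from -0.28 without mouse 1 to -0.15 without mouse 3. The intervals leave room for a Ccn2 level between 0.56 and 1.19 times that of controls, and for a Ski level between 0.89 and 1.13 times. Photoreceptor RNA differed between these groups (mean marker score 11.8 against 9.40 on the log2 scale, exact permutation p 0.00794, n = 5 each). The endothelial score was higher by 0.11 in Tgfbr2ΔEC mice (exact permutation p 0.0238). A fit with the photoreceptor score as a covariate called 0 of the 9 genes and gave -0.57 for Ccn2, -0.44 for Id3, -0.43 for Id2 and -0.25 for Id1. That score was at most 10.5 in controls and at least 11.2 in Tgfbr2ΔEC mice, so the fit can hardly separate it from genotype.

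In choroid with PLX, 0 of the 9 genes were called, against 0.00423% of all genes, and 0 had an unadjusted p under 0.05, against 3.76%, with log2 differences from -0.18 to 0.03 and a lowest exact permutation p of 0.325. Over both diets 0 were called, against 0.00847% of all genes, and 0 had an unadjusted p under 0.05, against 6.6%. Id1 had the lowest unadjusted p, at a difference of -0.18 (95% interval -0.38 to 0.02). In retina without PLX, limma called 0 of the 9, against 0% of 23243 genes, and the unadjusted p was under 0.05 for 2, against 3.26% of all genes. These 2 were Ccn2, at -0.51 (95% interval -0.92 to -0.10), and Tgfbi, at -1.26 (-2.52 to -0.01), with exact permutation p of 0.127 and 0.167. Leaving out 1 mouse at a time moved the Tgfbi difference between -0.80 (without mouse 1) and -1.75 (without mouse 6). In retina with PLX 0 were called, against 0% of all genes, and 0 had an unadjusted p under 0.05, against 2.71%, with differences from -0.60 for Smad6 to 0.17 for Tgfbi. The melanocyte marker score was higher by 0.82 in these Tgfbr2ΔEC retinas (exact permutation p 0.00794). Over both diets 0 were called in retina, against 0% of all genes, and 0 had an unadjusted p under 0.05, against 3.78%. The difference of the genotype effect between diets was called for 0 of the 9 genes in choroid (0% of all genes) and for 0 in retina (0%), with 0 and 1 at an unadjusted p under 0.05 (Ccn2 in retina, 0.59, 95% interval 0.01 to 1.17), against 6.57% and 2.44% of all genes. Of the 72 genes in 5 lists of further targets, ligands, receptors and SMADs, 71 were tested in each tissue and limma called 0 for genotype. At an unadjusted p under 0.05 there were 3 in choroid without and 0 with PLX, against 9.25% and 3.76% of all genes, and 4 in retina without and 4 with PLX, against 3.26% and 2.71%. The medians of the further SMAD2/3 targets and SMAD1/5 targets in choroid without PLX were -0.06 and -0.02.

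Tgfbi was lower in +PLX choroids of both genotypes. In control choroids limma called 1 of the 9 genes, against 3.75% of all genes (0.601% higher and 3.15% lower): Tgfbi, which fell by 0.72 on the log2 scale (SE 0.15, adjusted p 0.0042), to 0.61 times the -PLX mean (exact permutation p 0.00794, the smallest that 5 mice against 5 can give). In Tgfbr2ΔEC choroids it again called Tgfbi alone, against 4.06% of all genes (0.559% higher and 3.5% lower), and Tgfbi fell by 0.67 (SE 0.15, adjusted p 0.0093; exact permutation p 0.00794). Over both genotypes Tgfbi fell by 0.69 (SE 0.10, adjusted p 8.6e-05). These calls held in every fit that left out 1 mouse, with differences of -0.74 to -0.64 over both genotypes. The effect of PLX on Tgfbi did not differ detectably between genotypes (difference 0.06, 95% interval -0.38 to 0.49).

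Ccn2 moved the other way. It was higher by 0.57 (95% interval 0.03 to 1.11) in control and by 0.68 (0.14 to 1.22) in Tgfbr2ΔEC choroids, and neither difference passed the adjusted test of limma (adjusted p 0.33 and 0.17; unadjusted exact permutation p 0.119 and 0.0317). Over both genotypes it rose by 0.63 (SE 0.18, adjusted p 0.042), 1.54-fold, which made 2 of 9 genes called against 7.13% of all genes (2.07% higher and 5.06% lower). This call rested on a narrow margin. It was lost without any single one of 14 of the 20 mice (adjusted p 0.050 to 0.083 without mouse 1, 4, 5, 6, 8, 9, 10, 13, 14, 15, 16, 18, 19 or 20), with differences of 0.54 to 0.65, and it was lost when no minimum mean was set or the sex score was a covariate. Id1 was higher by 0.27 over both genotypes (95% interval 0.07 to 0.47, adjusted p 0.10) and passed only without mouse 11 (0.32, adjusted p 0.033). The other 6 genes had differences from -0.11 for Id2 to 0.27 for Smad6, and the median of the 9 was 0.12 against 0.00 over all genes. Neither Smad7 (0.12, 95% interval -0.13 to 0.36) nor Skil (-0.02, -0.23 to 0.19) passed. Within Tgfbr2ΔEC choroids the unadjusted exact permutation p was 0.0159 for Id1 and 0.0476 for Ski, against 0.143 and 0.151 in controls.

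**Figure D3:**
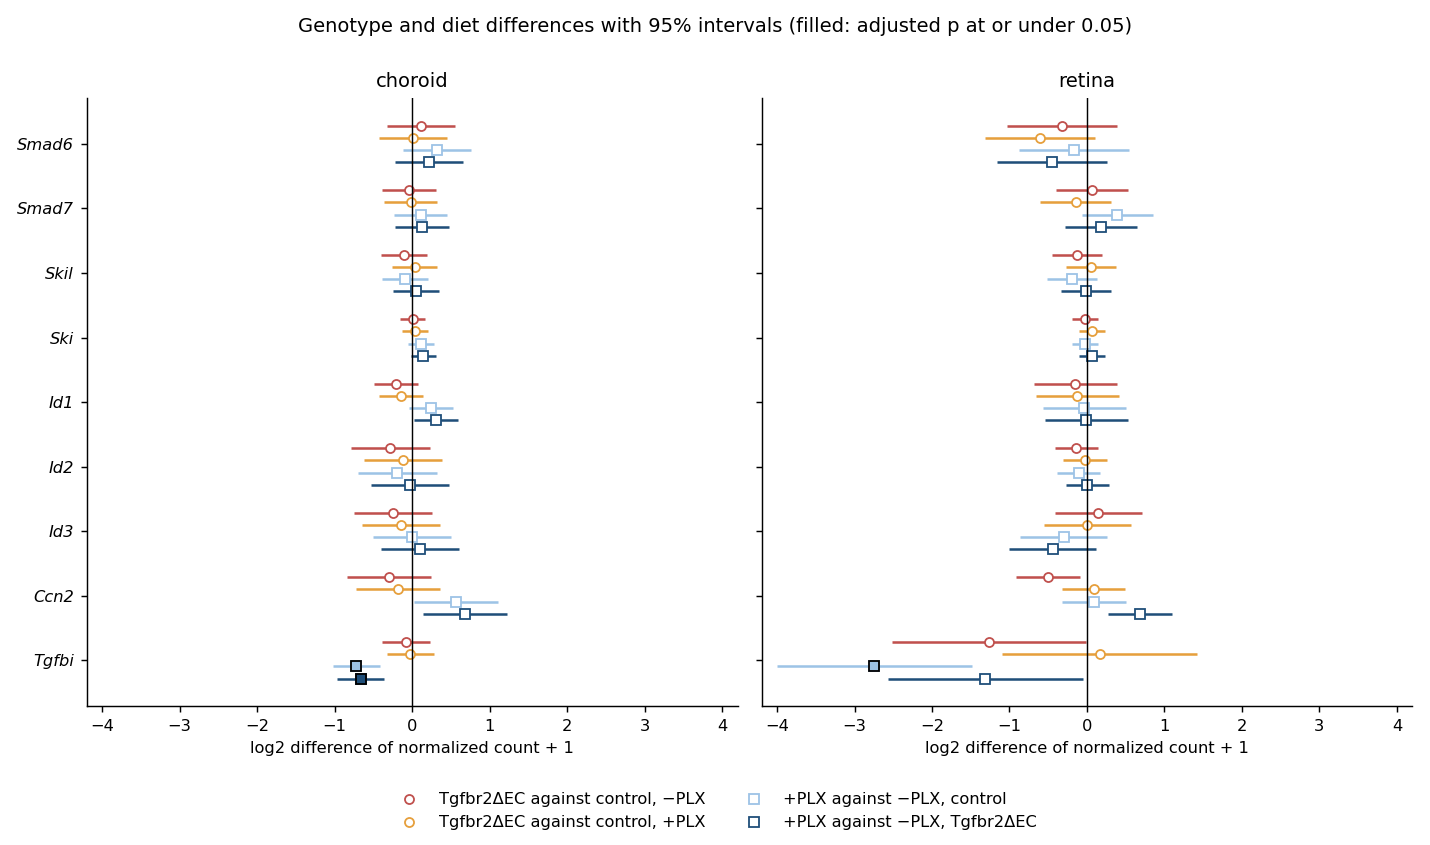
Log2 differences of the 9 genes with 95% intervals from limma in choroid and retina, for genotype (circles) and diet (squares); filled symbols mark an adjusted p at or under 0.05. Tgfbi carries the 3 filled symbols, in both choroid diet comparisons and in control retina, and the intervals of Ski are the narrowest.

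In retina, Tgfbi was the 1 gene of 9 called in control mice, against 0.736% of all genes (0.0086% higher and 0.727% lower). With PLX it fell by 2.74 on the log2 scale (SE 0.60, limma adjusted p 0.029; exact permutation p 0.00794). The mean went from 122 ± 117 to 11.4 ± 4.62 normalized counts (SD, n = 5). This call was lost without mouse 1 or mouse 5, the mice with the highest Tgfbi (adjusted p 0.12 for each, differences -2.28 and -2.39), and also without mouse 11, 13, 14 or 15. It was lost as well with no minimum mean (adjusted p 0.051) and with the melanocyte score as a covariate (0.096). The same held without the retinas of mice 1 and 9 (0.15) and in the fit of the 10 libraries compared (0.11). In Tgfbr2ΔEC retinas 0 of the 9 passed limma's test, against 0.516% of all genes (0.0043% higher and 0.512% lower), and for 2 the unadjusted p was under 0.05, against 3.95% of all genes. Tgfbi differed there by -1.31 (95% interval -2.57 to -0.06) and Ccn2 by 0.68 (0.27 to 1.09), Ccn2 with an adjusted p of 0.29 that became 0.018 without mouse 6 (difference 0.87). Without the same mouse, whose Tgfbi was the highest of its group, the Tgfbi difference shrank to -0.83. The unadjusted exact permutation p in Tgfbr2ΔEC retinas was 0.0159 for Smad6 (difference -0.46) and 0.0317 for Ccn2. It was 0.0397 for both Id3 (-0.44) and Tgfbi. Over both genotypes Tgfbi was again the 1 gene called, against 1.09% of all genes (0.0172% higher and 1.08% lower), and fell by 2.03 (SE 0.43, adjusted p 0.014), a call that held without any single mouse. Without mouse 11 Id3 was called too (-0.54, adjusted p 0.044). The effect of PLX in choroid minus that in retina was called for 0 of the 9 genes, against 1.37% of all genes (0.543% above and 0.822% below 0), and 2 had an unadjusted p under 0.05, against 10.2% of all genes, with Tgfbi at 1.33 (95% interval 0.42 to 2.25, adjusted p 0.18).

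Phagocyte markers moved with Tgfbi. The score of 14 mononuclear phagocyte markers (the mean of log2(normalized count + 1)) lay at 11.4 to 11.7 in -PLX and at 8.86 to 9.72 in +PLX choroids, all 14 markers being above 0 in every choroid. Their sum was 85328 to 108152 in control -PLX, 86509 to 106651 in Tgfbr2ΔEC -PLX, 25841 to 53781 in control +PLX and 26268 to 36532 in Tgfbr2ΔEC +PLX choroids. In retina the score lay at 6.14 to 8.11 without and at 1.94 to 3.33 with PLX, where 9 of the 14 markers were at 0 in at least 1 library of each genotype and Mrc1 was at 0 in all control +PLX retinas. The sum there was 2162 to 6101 without and 418 to 582 with PLX. The 3 retinas with the highest Tgfbi, of mice 5, 1 and 6, also had the highest phagocyte scores, 8.11, 8.02 and 7.84. In bulk tissue, fewer cells of a type and less RNA per cell cannot be told apart, and the part of the phagocyte number in the Tgfbi result was not tested. The endothelial marker score was higher in +PLX choroids, by 0.27 in controls and 0.24 in Tgfbr2ΔEC mice (exact permutation p 0.00794 and 0.0159, n = 5 each). The mural score was higher by 0.24 in Tgfbr2ΔEC choroids (exact permutation p 0.00794) and differed by 0.24 in controls (exact permutation p 0.111). The fibroblast score was higher by 0.24 in Tgfbr2ΔEC choroids (exact permutation p 0.0476) and differed by 0.16 in controls (exact permutation p 0.0873), and the melanocyte score was higher by 0.23 in Tgfbr2ΔEC choroids (exact permutation p 0.0317). In control retinas the fibroblast score differed by -0.70 with PLX (exact permutation p 0.00794). In Tgfbr2ΔEC retinas the retinal pigment epithelium score was higher by 0.45 with PLX (exact permutation p 0.0238). The part of the choroid scores in the choroid results for Ccn2 and Tgfbi was not tested. Nor was that of the fibroblast and retinal pigment epithelium scores in the results of retina. The photoreceptor score of Tgfbr2ΔEC choroids lay at 11.2 to 12.7 without and at 8.87 to 10.1 with PLX (exact permutation p 0.00794), and in controls the groups overlapped. With that score as a covariate, the difference in Tgfbr2ΔEC choroids was 0.93 for Ccn2 (limma adjusted p 0.17) and -0.83 for Tgfbi (adjusted p 0.0059). Since the score did not overlap between these diets, the fit can hardly separate the 2.

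**Figure D4:**
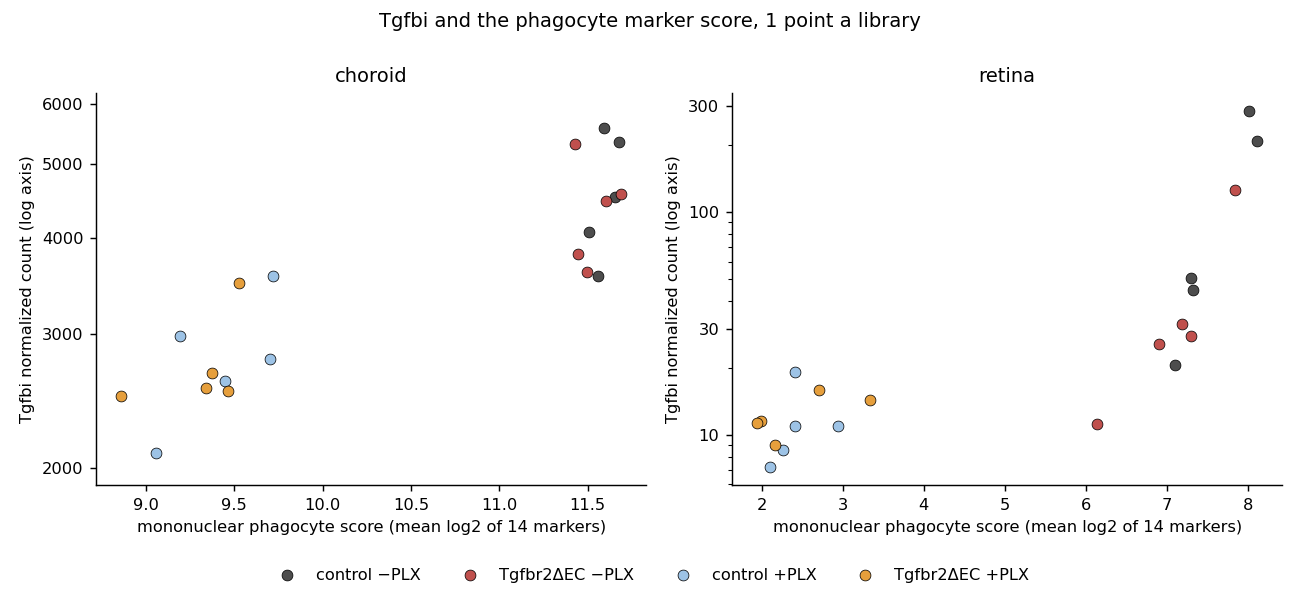
Tgfbi normalized count (log axis) against the score of 14 phagocyte markers (mean log2), 1 point per library, coloured by group, in choroid and retina. The diets form separate clusters in both tissues, and in retina the -PLX points rise from 11.1 at a score of 6.14 to 285 at 8.02.

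Around the 9 genes, 12 of the 71 further genes tested passed limma's test for PLX in choroid over both genotypes, against the 7.13% of all genes. Among them, 3 of 25 SMAD2/3 targets were called: Ltbp2, a matrix protein of the latent TGF-beta binding family, rose by 0.37 (adjusted p 0.012). Tgif1, a SMAD co-repressor, fell by 0.33 (adjusted p 0.0076), and the AP-1 gene Junb fell by 0.36 (adjusted p 0.030). The median of the 25 was 0.11. Of 14 further SMAD1/5 targets 3 were called, all higher: the transcription factor genes Sox18 (0.27), Hes1 (0.29) and Gata2 (0.54), with adjusted p of 0.026, 0.032 and 0.048. All 14 differences of this list were above 0, from 0.10 to 0.54, with a median of 0.27 against 0.00 over all genes. Among 14 ligands Bmp6, which signals through SMAD1 and SMAD5, rose by 0.47 (adjusted p 0.00082) and the inhibin subunit Inha by 0.41 (adjusted p 0.031), and Tgfb1 fell by 0.27 (adjusted p 0.039). Among 13 receptors and co-receptors Tgfbr1 fell by 0.34 (adjusted p 0.0036) and Tgfbr3, a co-receptor, rose by 0.28 (adjusted p 0.028), and of 5 SMADs Smad3 rose by 0.31 (adjusted p 0.0048).

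Within a genotype 3 of the 71 were called in control and 2 in Tgfbr2ΔEC choroids, against 3.75% and 4.06% of all genes, shares near the background. In control choroids Bmp6 (0.49, adjusted p 0.023) and Inha (0.59, adjusted p 0.046) rose and Tgfbr1 fell by 0.39 (adjusted p 0.032), and in Tgfbr2ΔEC choroids Bmp6 (0.46, adjusted p 0.035) and Hes1 (0.43, adjusted p 0.036) rose. In retina Tgfb1 was the 1 gene of 71 called over both genotypes, against 1.09% of all genes, and fell by 0.98 (adjusted p 0.043), from group means of 80.4 and 60.3 to 33.1 and 36.2 normalized counts. The PLX effect in choroid minus that in retina was called by limma for 1 of 72, Tgfbr2 (0.81, adjusted p 0.024), against 1.37% of all genes. Mean Tgfbr2 in control and Tgfbr2ΔEC retinas was 213 and 178 without and 123 and 113 with PLX. Bmp6 averaged 1507 ± 79.0 and 1416 ± 269 in control and Tgfbr2ΔEC -PLX choroids and 2119 ± 172 and 1940 ± 321 in the +PLX choroids, so that the control groups did not overlap. Tgfb1 averaged 2665 ± 410 and 2505 ± 221 without and 2040 ± 247 and 2250 ± 272 with PLX, and its groups overlapped. The endothelial and phagocyte scores given for Tgfbi and Ccn2 moved with these genes as well, and their part was not tested.

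Within the groups, several of the genes varied together from mouse to mouse in choroid. For each gene, the deviation of log2(normalized count + 1) from the mean of the mouse's own group was taken, and deviations of 2 genes were correlated over the 20 choroids, with permutation p from 100000 permutations within groups, adjusted over the 72 pairs of both tissues. Of the 36 pairs in choroid, 28 had a positive Pearson r, the median r was 0.40, and 13 passed both the Pearson and the Spearman test. Id1 and Ccn2 had the highest r, 0.91 (adjusted p 0.0014; Spearman rho 0.88, adjusted p 0.00072), which became 0.86 when the 2 mice most distant from the Id1 median were left out. Id1 and Id3 had an r of 0.89 (rho 0.87), Id2 and Id3 one of 0.86 (rho 0.88) and Id3 and Ccn2 one of 0.84 (rho 0.80). Smad6 went with Id3 (0.80), Id1 (0.80), Id2 (0.78) and Ccn2 (0.67). Smad7 and Skil went with Id2 (0.68 and 0.68), and Ski with Ccn2 (0.60). Tgfbi stood apart, with a negative r to each of the other 8, from -0.64 with Id2 to -0.04 with Ski, of which 0 passed both tests. Both genes of a pair were measured in the same libraries and so share their depth and dissection. How often pairs of other genes correlate as strongly was not counted.

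In retina the median r over the 36 pairs was 0.13, and 1 pair passed both tests, Id1 and Id2, with an r of 0.65 and a rho of 0.71 (adjusted p 0.0066 and 0.011). Id1 and Skil had the lowest r, -0.66, which was -0.23 with the 2 most distant mice left out.

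**Figure D5:**
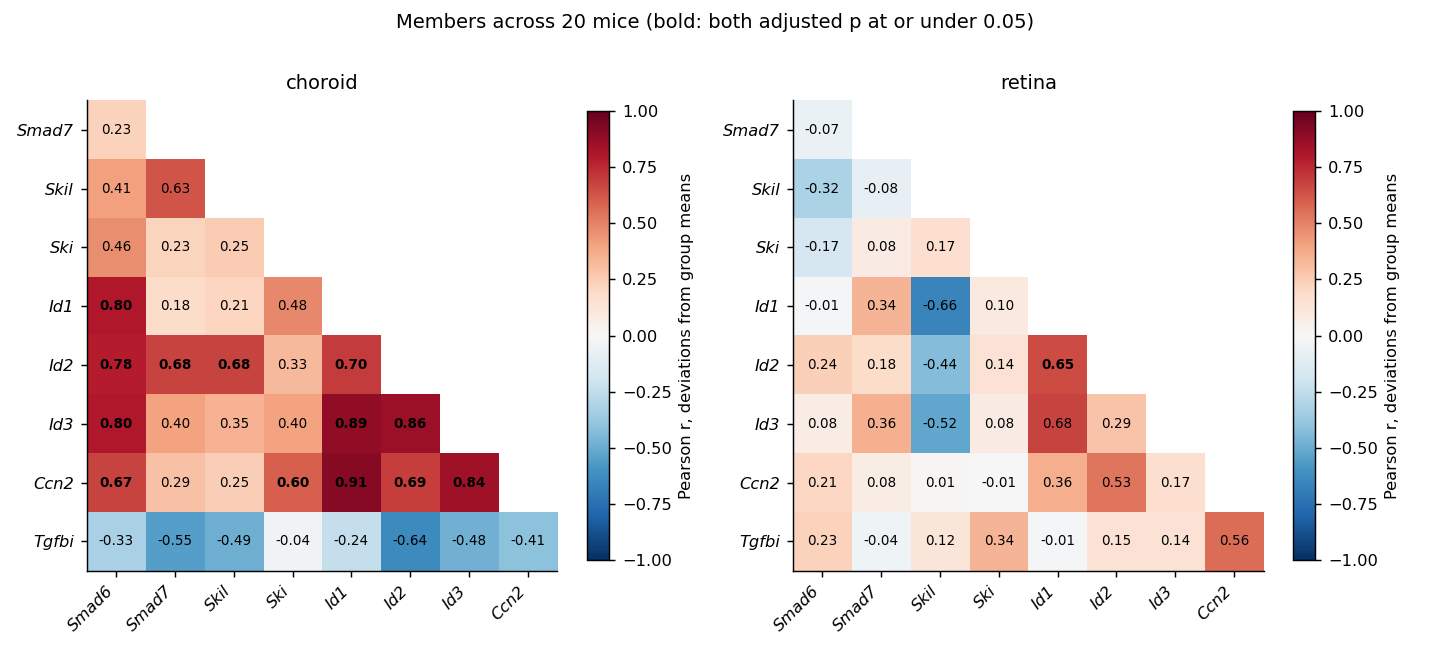
Pearson r between the deviations of 2 genes from their group means over 20 mice, in choroid and retina, from blue (-1) to red (1); bold values passed both adjusted permutation tests. In choroid Id1, Id2, Id3, Smad6 and Ccn2 form a block of r from 0.67 to 0.91 and Tgfbi a row of values below 0, and in retina 1 value is bold.

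The same deviations were set against 9 marker scores, 162 relations over both tissues. In choroid 4 passed both tests, all with the 10 mural cell markers: Id3 (r 0.73, rho 0.84), Ccn2 (r 0.69, rho 0.84), Smad6 (r 0.67, rho 0.84) and Id2 (r 0.60, rho 0.74), with adjusted Pearson p of 0.027, 0.041, 0.0097 and 0.048. Leaving out the 2 mice most distant from the median of the score gave r of 0.84, 0.83, 0.72 and 0.73. Of the 10 markers, 2 (Acta2 and Tagln) also stand on the list of further SMAD2/3 targets, so the score is not independent of the pathway. With the other 8 markers, a choice made after seeing the data, r was 0.64 for Id3, 0.63 for Ccn2, 0.58 for Smad6 and 0.51 for Id2, given as a description with no test. In retina 2 passed, Tgfbi with the phagocyte score (r 0.75, rho 0.80, adjusted p 0.0097 and 0.0057; r 0.76 when 2 mice were left out in the same way) and Id3 with the endothelial score (r 0.70, rho 0.81, adjusted p 0.0065 and 0.0070; r 0.71). In choroid, Tgfbi and the phagocyte score had an r of 0.48 (rho 0.51) and did not pass (adjusted p 0.46 and 0.33).

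Among 13641 protein-coding genes with a mean of at least 50 in choroid, the 2 whose deviations were most like each of the 9 were named, as a description. Atoh8, a transcription factor gene and itself on the list of SMAD1/5 targets, was the nearest to Id3 (r 0.94) and to Smad6 (0.81) and the second nearest to Id2 (0.88). Npr3, the natriuretic peptide clearance receptor, was nearest to Id2 (0.91) and second to Id3 (0.91). Id1 and Ccn2 were each other's nearest gene (0.91), followed by Id3 for Id1 (0.89) and Bpgm for Ccn2 (0.86). The nearest pairs were Crebbp and Zfp36l1 for Smad7 (0.82 and 0.79), Heatr5a and Nav1 for Skil (0.93 and 0.93), Cybrd1 and Nfib for Ski (0.88 and 0.86) and Galk1 and Smg9 for Tgfbi (0.89 and 0.84). Among 12773 genes in retina, those of Tgfbi were Lyz2 (0.84), the lysozyme gene of macrophages, which is also a marker of the phagocyte score, and the MHC class II gene H2-Ab1 (0.82). Those of Id3 were Ifitm3 and Cntf (0.88 and 0.87), and those of Skil Prune2 and Ncam2 (0.96 and 0.96). For Smad6, Smad7 and Ski the highest r in retina was 0.79, 0.84 and 0.77, and it was 0.92 for Id1, 0.86 for Id2 and 0.81 for Ccn2.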

How the data were processed

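RNA of choroid and retina was sequenced by the authors as stranded, polyadenylated single reads, quantified with Salmon 1.10.1 on GRCm39 (GENCODE M29), imported with tximport and normalized with DESeq2 1.36.0. The deposited signal per gene is a normalized count that need not be whole, and both tissues were scaled together. Low values were whole multiples of 1 read (tolerance 0.1) in only 49.6% to 78.9% of cases per library, which does not allow a test on counts. Symbols, positions and lengths came from GENCODE M39 (53700 of 54307 identifiers matched).

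Groups came from the sample labels. Tests used limma 3.58.1 (R 4.3.3, mean-variance trend) on log2(normalized count + 1), a scale that understates changes of low genes, where the mean was 1 or more, with Benjamini-Hochberg adjustment over all genes and calls at 0.05. The 4 groups of a tissue shared a fit (23619 genes in choroid, 23243 in retina), as did all 8 for tissue contrasts (24317). The study's own tests had sex and a neuronal percentage as covariates, which were not used in the main fits here. Single genes were compared by exact two-sided permutation of 5 mice against 5. The alternatives were pseudocounts of 0.5 and 5, no minimum mean or one of 10, scaling to totals or upper quartiles, robust variance, neural retina, sex or melanocyte scores as covariates, fits of 10 libraries, a replicate block and leaving out single mice. The procedure was tested on simulated data. The same-numbered choroid and retina come from 1 mouse by the labels, so they are paired, but their deviations from group means correlated at only -0.11 to 0.18 (over 0.1 in 5 of 20 mice, consensus correlation -0.01). The 9 genes, the gene and marker lists and the tests were chosen with earlier results of these data known. Named genes are the 9, Tgfbr2, up to 4 called genes of each list, and the 2 nearest genes by correlation. Tables and permutations were made in Python 3.11.15 (scipy 1.17.1, numpy 2.4.6, pandas 2.3.3).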

Additional observations from a re-analysis of the deposited data

Results flagged for a closer look

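In 9 of the 72 groups of 5 mice (9 genes, 8 groups), 1 mouse stood apart from the other 4, its gap to the nearest being more than 0.71 of the range of the group, and about 3.6 such groups are to be had by chance at 1 in 20. In choroid, Id1 in Tgfbr2ΔEC -PLX was highest in mouse 7 (1103 normalized counts against 894 to 932, gap 0.819 of the range) and Id3 in the same group lowest in mouse 10 (2121 against 3030 to 3397, 0.712). Tgfbi in Tgfbr2ΔEC +PLX choroids was highest in mouse 17 (3496 against 2487 to 2666, 0.823). In Tgfbr2ΔEC -PLX retinas mouse 6 was highest for both Ccn2 (652 against 304 to 372, 0.804) and Tgfbi (125 against 11.1 to 31.5, 0.821). In control -PLX retinas Ccn2 was lowest in mouse 4 (344 against 581 to 676, 0.713) and Smad6 highest in mouse 3 (136 against 39.9 to 51.2, 0.883). In +PLX retinas Id3 was highest in mouse 11 of the controls (434 against 104 to 188, 0.743) and Smad7 in mouse 17 of the Tgfbr2ΔEC mice (549 against 309 to 364, 0.769).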

How the results depend on the processing

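Over 4293 refitted values of the 9 genes, 182 changed sign, 0 of them past the threshold and the largest at 0.191 on the log2 scale, 26 lost and 3 gained the call, and the number of genes called for genotype or its interaction with diet stayed at 0 under every alternative run. For PLX in choroid over both genotypes the number called went from 2 to 1 with no minimum mean and with the sex score (adjusted p of Ccn2 0.062 and 0.055), and ranged from 1 to 3 without single mice. For PLX in control retina it went from 1 to 0 with no minimum mean (Tgfbi, adjusted p 0.051), with the melanocyte score (0.096), without the retinas of mice 1 and 9 (0.15) and in the fit of 10 libraries (0.11), and ranged from 0 to 1 without single mice; the melanocyte score and the pair of retinas were chosen after seeing the data. Without single mice the number ranged from 0 to 1 for PLX in Tgfbr2ΔEC retina and from 1 to 2 for retina over both genotypes. Reversed signs for genotype in choroid without PLX were those of Ski (-0.0076 scaled to upper quartiles, -0.0079 with the neural retina score, -0.013 with the sex score) and Tgfbi (0.10 with the neural retina score), and for PLX in control retina Ccn2 (-0.013 with the melanocyte score). Without single mice, the genotype difference in choroid without PLX ranged from -0.032 to 0.052 for Ski, -0.17 to 0.017 for Skil, -0.0052 to 0.20 for Smad6 and -0.19 to 0.066 for Smad7, and that of PLX in control retina from -0.074 to 0.17 for Ccn2. The cause was not tested. The replicate block used 1 correlation, shared by all genes, between the libraries of a mouse. This was estimated at -0.01, so the fit was nearly the same as that without the block. With it 9 of 9 genes were called between tissues and 0 for the difference of the PLX effect, as without it. For genotype and PLX no paired analysis was possible because the groups compared share no replicate numbers. Tgfbi in +PLX retinas, at 7.18 to 19.1 normalized counts, rests on few reads.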
